A study of Mus musculus with 12 samples.

Results

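The genes described here encode 2 families of conjugating enzymes of the liver, the cytosolic and mitochondrial glutathione transferases (Gst) and the UDP-glucuronosyltransferases (Ugt). Members were the protein-coding genes whose symbol begins with Gst, a letter and a digit, or with Ugt1, Ugt2 or Ugt3, and 42 of the 24537 listed genes met this rule. The 22 Gst genes fall into the subfamilies Gsta (4), Gstk (1), Gstm (7), Gsto (2), Gstp (3), Gstt (4) and Gstz (1), and the 20 Ugt genes into Ugt1a (8), Ugt2a (3), Ugt2b (7) and Ugt3a (2). Liver RNA was sequenced from 12 male C57Bl/6J mice that were housed singly from 6 weeks of age and were either fed ad libitum (Con) or given 30% less food (CR), for 25 or 30 days, with 3 mice in each of the 4 groups. The CR mice were fed once a day according to the methods of the study, so that diet and the time since the last meal cannot be told apart. By the same methods the CR mice received a fortified form of the chow given to Con mice. Restriction and chow formula therefore cannot be told apart either. The methods also state that mice were labeled with heavy water before sacrifice. Mice are called here Con7 to Con9 and CR7 to CR9 at day 25, and Con10 to Con12 and CR10 to CR12 at day 30, and values are listed in that order. Levels are FPKM, the reads on the exons of a gene scaled to exon length and to the size of the library.

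Glutathione transferases join the tripeptide glutathione to electrophilic compounds, and UDP-glucuronosyltransferases join glucuronic acid to hydroxyl, carboxyl and amino groups. Both reactions make lipophilic compounds such as bilirubin, steroid hormones, lipid peroxidation products and drugs more soluble in water, so that transporters can carry them into bile or blood. Many of these genes respond to the receptors CAR, PXR and AHR and to the transcription factor NRF2, and several differ between male and female liver in mice.

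An effect is the difference between CR and Con in log2(FPKM + 1) with its standard error (SE), which understates the change of genes with a low FPKM. A member is said to have risen or fallen where the Benjamini-Hochberg adjusted p of limma over all 10593 tested genes was under 0.1, and to have passed both thresholds where the absolute log2 fold change was also at least 1. No exact permutation test of 3 against 3 mice can give a p under 0.1. The test covered 37 of the 42 members, those at 1 FPKM or more in 3 or more mice. The 5 others were Gsto2, Gstt4, Ugt2a1, Ugt2a2 and Ugt2b37, whose highest values in any mouse were 0.407, 0.057, 0.023, 0.023 and 2.73 FPKM. Among the tested members, Gsta1 reached an FPKM of 1 in CR mice alone, and Gstp2 and Ugt2b38 in Con mice alone, so these 3 passed through 1 diet. Depth was 15748733 to 23345546 reads per library.

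At day 25, 16 of the 37 tested members had an adjusted p under 0.1, against 14.9% of all tested genes. This count was 5 without CR9 and 7 without Con7. Over all tested genes the count went from 1582 to 893 without CR9 and to 1000 without Con7. Of the 16, 13 rose (5.60% of all genes rose) and 3 fell (9.34% of all genes fell). At day 30, it was 28 of 37, against 24.7% of all tested genes, and 19 rose (background 8.33%) while 9 fell (background 16.4%). The 8 Ugt1a rows counted the same reads for the most part and stand for 1 locus, and outside them 8 of 29 members passed at day 25 and 20 of 29 at day 30. At day 30, 11 of the 13 Gst members that passed rose and 2, Gstm4 and Gstp1, fell. All 8 Ugt1a rows rose, and all 7 members that passed in Ugt2b and Ugt3a fell. Across both days 12 members rose at both, the 8 Ugt1a rows among them, and 3 fell at both. Another 8 passed the adjusted p at neither day, and none rose at 1 day and fell at the other. The median log2 fold change of the tested members was 0.26 at day 25 and 0.48 at day 30, beside -0.039 and -0.068 over all tested genes. Outside Ugt1a the median of the members was 0.07 at day 25 and -0.02 at day 30.

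Both thresholds were passed by 2 members at day 25, Gstm3 upward (0.840% of all genes did so) and Gstp1 downward (0.642%), which is 2 of 37 against 1.48% of all genes. At day 30, 6 of 37 passed them against 2.21% of all genes, Gstm3 and Gstp3 upward (0.925%) and Gstp1, Ugt2b1, Ugt2b35 and Ugt2b38 downward (1.28%). Gsta1, Gstp2 and Ugt2b38 entered the test through 1 diet alone, Gsta1 through CR mice, in which it rose, and Ugt2b38 through Con mice, against which it fell. Counted without these 3, a choice made after seeing the data, both thresholds were passed by 2 of 34 members at day 25 and 5 of 34 at day 30, and the adjusted p by 15 (12 up, 3 down) and 26 (18 up, 8 down). The 3 CR mice lay above the 3 Con mice for 17 members at day 25 (10.2% of all genes) and 19 at day 30 (12.1%), and below them for 5 (18.0%) and 11 (24.3%). Since Ugt1a accounts for 8 of those above at each day, 9 and 11 members outside that locus were higher in each CR mouse than in each Con mouse.

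**Figure D1:**
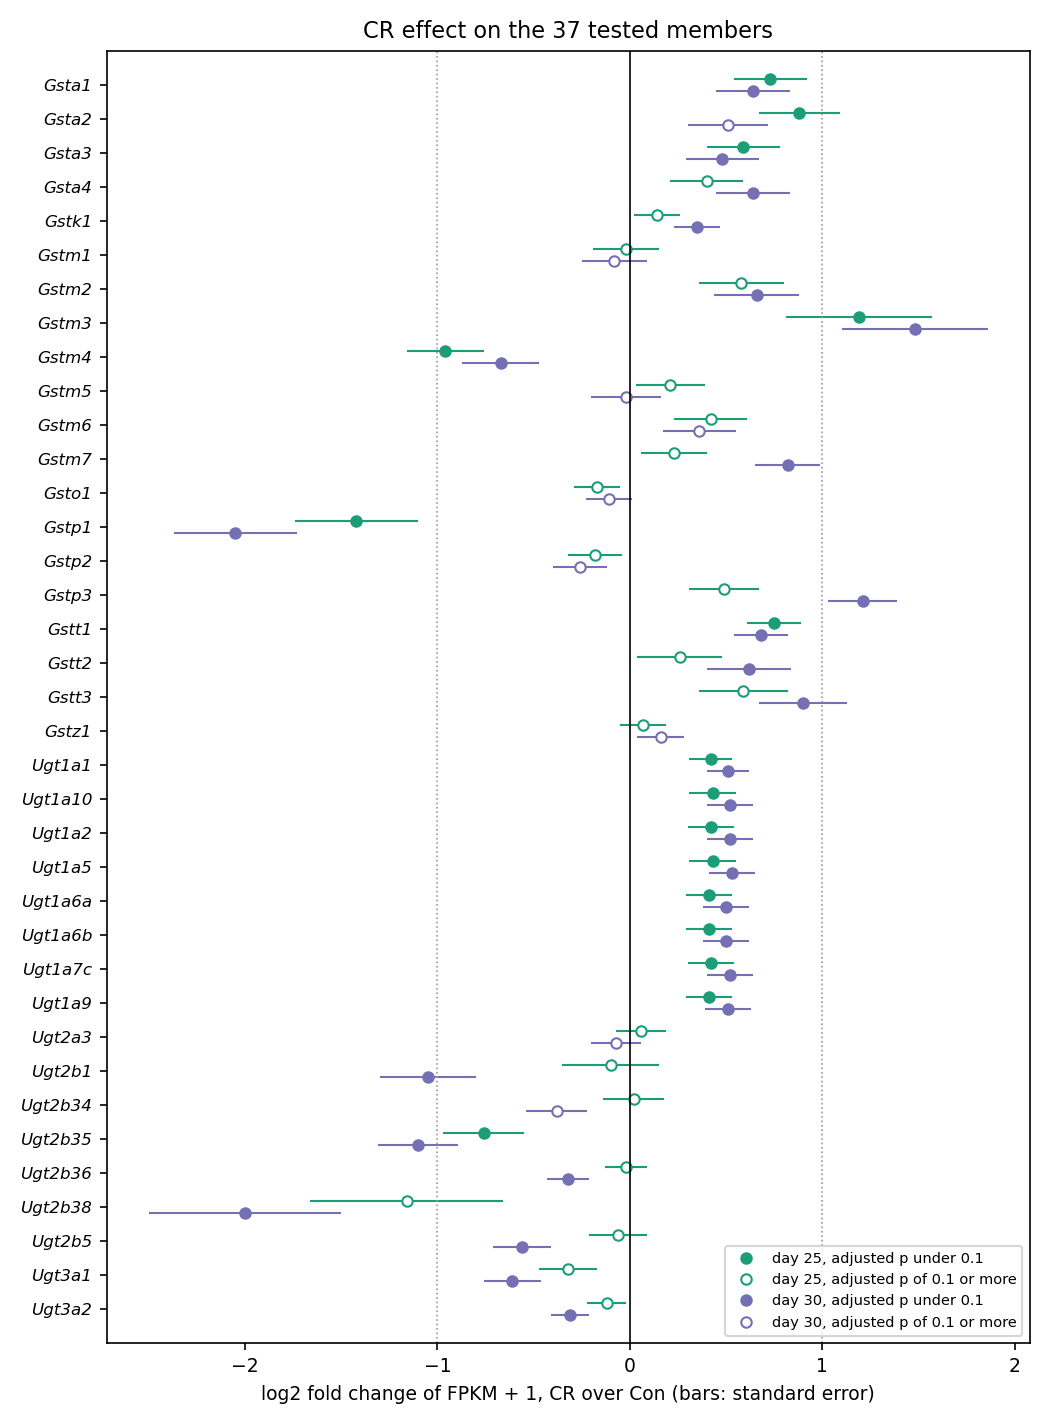
Each row is 1 of the 37 tested members and the horizontal axis is the log2 fold change of FPKM + 1 for CR over Con (green for day 25, purple for day 30, bars of 1 SE). Filled points have an adjusted p under 0.1 and dotted lines mark a log2 fold change of 1 in either direction. Gsta, Gstt and Ugt1a lie to the right of 0, Ugt2b and Ugt3a lie at or to the left of it apart from Ugt2b34 at day 25, and Gstm and Gstp hold members on both sides.

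The alpha class reduces lipid hydroperoxides and conjugates their products. Gsta3 (chr1:21240585-21265575, plus strand), its most abundant liver member here, was at 859, 867 and 652 FPKM in Con mice and 1156, 1302 and 1112 FPKM in CR mice at day 25. At day 30, Gsta3 was at 1134, 696 and 1156 FPKM in Con mice and 1354, 1517 and 1218 FPKM in CR mice. The CR mice were above the Con mice at both days, with a log2 fold change of 0.59 ± 0.19 (SE) with an adjusted p of 0.071 at day 25 and of 0.48 ± 0.19 (SE) with an adjusted p of 0.0995 at day 30. Gsta2 (chr9:78331020-78347145, minus strand) was at 24.9, 23.3 and 25.7 FPKM in Con mice and 36.6, 42.1 and 63.0 FPKM in CR mice at day 25. At day 30, Gsta2 was at 39.0, 38.5 and 65.2 FPKM in Con mice and 71.3, 59.1 and 67.9 FPKM in CR mice. It rose at day 25 (log2 fold change 0.88 ± 0.21 (SE), adjusted p = 0.0239), whereas at day 30 Con12 lay within the range of the CR mice (log2 fold change 0.51 ± 0.21 (SE), adjusted p = 0.121).

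Gsta4 (chr9:78191966-78209349, plus strand), which prefers the lipid aldehyde 4-hydroxynonenal, was at 40.9, 51.7 and 43.9 FPKM in Con mice and 45.7, 58.2 and 80.6 FPKM in CR mice at day 25. At day 30, Gsta4 was at 66.1, 74.1 and 78.9 FPKM in Con mice and 139.6, 103 and 103 FPKM in CR mice. Its groups overlapped at day 25 (log2 fold change 0.40 ± 0.19 (SE), adjusted p = 0.212), and at day 30 the 3 CR mice were above the 3 Con mice (log2 fold change 0.64 ± 0.19 (SE), adjusted p = 0.0351). Gsta1 (chr9:78230669-78242683, plus strand) was near the floor of detection, at 0.191, 0.128 and 0 FPKM in Con mice and 0.443, 0.671 and 1.52 FPKM in CR mice at day 25. At day 30, Gsta1 was at 0.688, 0.440 and 0.729 FPKM in Con mice and 1.11, 1.87 and 1.61 FPKM in CR mice. These values rest on 0 to 14 reads in a Con mouse and 8 to 32 in a CR mouse. It rose at day 25 (log2 fold change 0.73 ± 0.19 (SE), adjusted p = 0.0334) and at day 30 (log2 fold change 0.64 ± 0.19 (SE), adjusted p = 0.0382), but it entered the test through the CR mice alone, and with a pseudocount of 0.1 its adjusted p at day 30 was 0.110. Coding sequences of Gsta1 and Gsta2 were 98.0% identical. As many as 81.8% of the 100-base windows of the Gsta1 transcript occurred in another gene, most often Gm3776, whose own log2 fold change was 0.37 at day 25 and 1.00 at day 30. The values of Gsta1 are uncertain for this reason. Of the windows of Gsta2, 35.0% occurred in another gene, most often Gm10639, so its values carry the same limit to a lesser extent.

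The 4 Gsta genes together summed to 721 to 942 FPKM in Con mice and 1239 to 1403 FPKM in CR mice at day 25 and to 809 to 1301 FPKM in Con mice and 1391 to 1681 FPKM in CR mice at day 30. These sums did not overlap between diets, and the CR mean was 1.51 and 1.38 times the Con mean. The call for Gsta3 was the least stable of the class: at day 25 its adjusted p was 0.106 to 0.221 when Con7, Con9, CR7, CR8 or CR9 was left out, and at day 30 it was 0.107 to 0.328 without Con11, CR10, CR11 or CR12. Without a filter on low values it was 0.153 at day 25 and 0.193 at day 30, where it was also 0.132 with a filter of 0.1 FPKM and 0.146 in a fit of the 2 groups alone. Gsta1 was above 0.1 without Con9 (0.102) or CR9 (0.106) at day 25 and without Con11 (0.121) or CR11 (0.114) at day 30, Gsta4 at day 30 without Con10 (0.109) or CR10 (0.146), and Gsta2 passed at day 30 without Con12 (0.025).

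**Figure D2:**
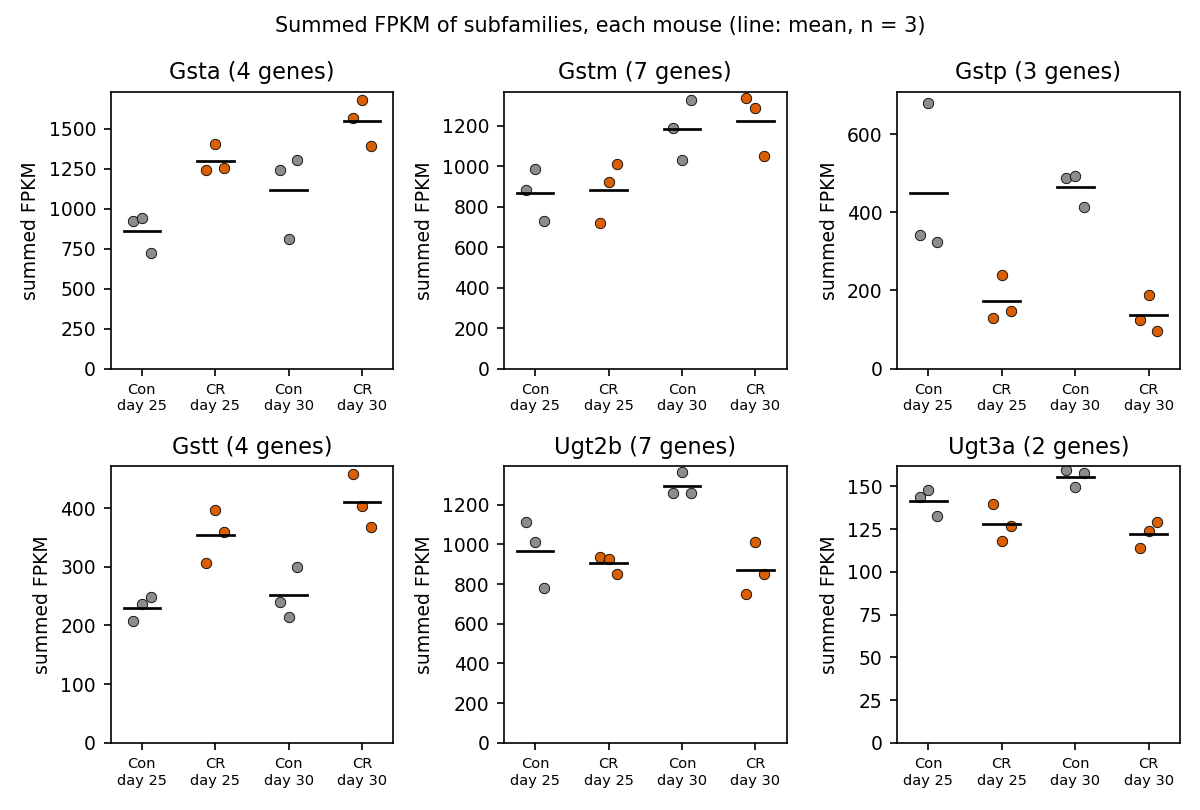
Summed FPKM of the members of 6 subfamilies (vertical axis, starting at 0) in each mouse of the 4 groups, with gray points for Con, orange points for CR and a line at the mean of 3 mice. The Gsta and Gstt sums are higher and the Gstp sums lower in CR at both days, the Ugt2b and Ugt3a sums are lower in CR at day 30, and the Gstm sums overlap.

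The mu class conjugates epoxides and other small electrophiles. Its most abundant member, Gstm1 (chr3:108012250-108017973, minus strand), was at 747, 866 and 617 FPKM in Con mice and 592, 754 and 863 FPKM in CR mice at day 25. At day 30, Gstm1 was at 996, 900.4 and 1091 FPKM in Con mice and 1033, 985 and 812 FPKM in CR mice. The groups overlapped at both days (log2 fold change -0.02 ± 0.17 (SE), adjusted p = 0.966 and log2 fold change -0.08 ± 0.17 (SE), adjusted p = 0.773). Gstm3 (chr3:107963696-107969174, minus strand) lies in the same cluster on chromosome 3, and its coding sequence was 89.4% identical to that of Gstm1. The first 90 coding bases of both show how far these genes differ in this stretch, with letters that differ from Gstm1 in capitals (11 of 90 in Gstm3):

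Gstm1: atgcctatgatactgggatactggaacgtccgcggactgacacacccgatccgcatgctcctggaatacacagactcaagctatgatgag
Gstm3: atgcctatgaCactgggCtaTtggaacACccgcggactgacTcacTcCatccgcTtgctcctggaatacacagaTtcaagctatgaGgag

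Gstm3 was at 19.4, 10.7 and 11.3 FPKM in Con mice and 22.6, 29.9 and 47.2 FPKM in CR mice at day 25. At day 30, Gstm3 was at 42.6, 20.5 and 71.7 FPKM in Con mice and 137, 110.2 and 95.6 FPKM in CR mice. Each CR mouse was above each Con mouse at both days, and the CR mean was 2.40 times the Con mean at day 25 (log2 fold change 1.19 ± 0.38 (SE), adjusted p = 0.073) and 2.54 times at day 30 (log2 fold change 1.48 ± 0.38 (SE), adjusted p = 0.0215). The call at day 30 held when any 1 of the 6 mice of that day was left out, whereas at day 25 the adjusted p was 0.175, 0.184, 0.119 and 0.234 without Con8, Con9, CR8 and CR9, 0.153 without a filter on low values and 0.122 with robust eBayes.

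Gstm7 (chr3:107926334-107931745, minus strand) was at 21.8, 21.8 and 23.5 FPKM in Con mice and 27.0, 28.8 and 23.8 FPKM in CR mice at day 25. At day 30, Gstm7 was at 26.4, 17.2 and 31.0 FPKM in Con mice and 44.7, 45.6 and 40.4 FPKM in CR mice. It rose at day 30 (log2 fold change 0.82 ± 0.17 (SE), adjusted p = 0.00635) but not past the threshold at day 25 (log2 fold change 0.23 ± 0.17 (SE), adjusted p = 0.421), although the CR mice were the higher ones at both days. Gstm2 (chr3:107981702-107986436, minus strand) was at 14.0, 8.55 and 11.3 FPKM in Con mice and 14.2, 20.5 and 16.9 FPKM in CR mice at day 25. At day 30, Gstm2 was at 17.5, 10.5 and 18.4 FPKM in Con mice and 27.0, 26.3 and 20.5 FPKM in CR mice. Here too the CR mice were above the Con mice at both days, and the adjusted p was under 0.1 at day 30 (log2 fold change 0.66 ± 0.22 (SE), adjusted p = 0.0531) and over it at day 25 (log2 fold change 0.58 ± 0.22 (SE), adjusted p = 0.116).

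Gstm4 (chr3:108040408-108044859, minus strand) went the other way within the same cluster, at 34.1, 37.5 and 32.9 FPKM in Con mice and 15.0, 22.5 and 15.4 FPKM in CR mice at day 25. At day 30, Gstm4 was at 44.3, 35.1 and 49.6 FPKM in Con mice and 22.2, 37.2 and 22.2 FPKM in CR mice. It fell at day 25, when the CR mean was 0.506 times the Con mean (log2 fold change -0.96 ± 0.20 (SE), adjusted p = 0.013), and at day 30 (log2 fold change -0.67 ± 0.20 (SE), adjusted p = 0.043), when CR11 at 37.2 FPKM overlapped Con11 at 35.1 FPKM. Gstm6 (chr3:107938848-107943749, minus strand) was at 40.3, 34.0 and 28.2 FPKM in Con mice and 44.8, 56.5 and 37.7 FPKM in CR mice at day 25. At day 30, Gstm6 was at 52.8, 39.9 and 57.8 FPKM in Con mice and 64.0, 75.9 and 54.1 FPKM in CR mice. Its groups overlapped (log2 fold change 0.42 ± 0.19 (SE), adjusted p = 0.185 and log2 fold change 0.36 ± 0.19 (SE), adjusted p = 0.206), and its adjusted p at day 25 was 0.0691 in the blocked fit, which pairs mice of the same replicate number. Gstm5, at 4.21 to 8.62 FPKM over the 12 mice, passed at neither day.

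Because Gstm1 dominates the class, the 7 Gstm genes summed to 729 to 985 FPKM in Con mice and 721 to 1011 FPKM in CR mice at day 25 and 1030 to 1328 FPKM in Con mice and 1050 to 1336 FPKM in CR mice at day 30, which overlap. Without Gstm1 the sums were 111 to 135 FPKM in Con mice and 128 to 166 FPKM in CR mice at day 25 and 129.5 to 237 FPKM in Con mice and 238 to 303 FPKM in CR mice at day 30, where they no longer overlapped and the CR mean was 1.52 times the Con mean. Leaving out Con11, CR10 or CR11 brought Gstm2 at day 30 to an adjusted p of 0.187, 0.167 or 0.124, testing without a filter brought it to 0.108, leaving out Con7 brought it to 0.0892 at day 25, and Gstm4 at day 30 was at 0.108 to 0.162 without Con10, Con12, CR10 or CR12.

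The pi class has a dominant gene in the liver of male mice, Gstp1 (chr19:4035411-4037912, minus strand), beside Gstp2 (chr19:4040288-4042221, minus strand) and Gstp3 (chr19:4057487-4059294, minus strand). Coding sequences of Gstp1 and Gstp2 were 98.1% identical, whereas Gstp3 shared 73.6% of its coding bases with Gstp1. The first 90 coding bases of the 3 genes are shown to let the reader see which of them a read can separate, with letters that differ from Gstp1 in capitals (6 of 90 in Gstp2 and 13 of 90 in Gstp3):

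Gstp1: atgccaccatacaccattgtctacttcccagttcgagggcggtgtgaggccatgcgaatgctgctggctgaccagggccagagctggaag
Gstp2: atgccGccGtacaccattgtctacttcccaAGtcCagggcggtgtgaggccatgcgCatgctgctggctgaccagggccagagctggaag
Gstp3: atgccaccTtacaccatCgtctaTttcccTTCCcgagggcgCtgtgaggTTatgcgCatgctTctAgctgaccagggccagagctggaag

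Gstp1 was at 332, 670.1 and 318 FPKM in Con mice and 116, 228 and 137 FPKM in CR mice at day 25. At day 30, Gstp1 was at 478, 484 and 403 FPKM in Con mice and 98.0, 164 and 80.5 FPKM in CR mice. The lowest Con mouse was above the highest CR mouse at each day, and the CR mean was 0.364 times the Con mean at day 25 (log2 fold change -1.42 ± 0.32 (SE), adjusted p = 0.0177) and 0.251 times at day 30 (log2 fold change -2.05 ± 0.32 (SE), adjusted p = 0.00168). Both thresholds were passed at both days without any 1 of the mice of that day. Con8 was the highest mouse, and without it the log2 fold change at day 25 was -1.08.

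Gstp3 moved in the opposite direction, at 8.86, 8.47 and 6.57 FPKM in Con mice and 13.3, 11.9 and 9.53 FPKM in CR mice at day 25. At day 30, Gstp3 was at 9.14, 7.79 and 8.96 FPKM in Con mice and 26.2, 23.2 and 15.6 FPKM in CR mice. At day 30 the lowest CR mouse was above the highest Con mouse (log2 fold change 1.21 ± 0.18 (SE), adjusted p = 0.00106), and both thresholds were passed without any 1 of the 6 mice. At day 25 the groups did not overlap either, but the adjusted p missed the threshold (log2 fold change 0.49 ± 0.18 (SE), adjusted p = 0.107), while it was 0.0162 in the blocked fit and 0.0934 without CR9. Gstp2 was at 0.317 to 1.32 FPKM over the 12 mice, on 5 to 21 reads, with CR mice below Con mice at day 30 (log2 fold change -0.18 ± 0.14 (SE), adjusted p = 0.466 at day 25 and log2 fold change -0.26 ± 0.14 (SE), adjusted p = 0.228 at day 30). Of the 100-base windows of Gstp1, 52.8% also occur in another gene, most often Gstp2, and none of those of Gstp3 do. Summed over the class, values were 325 to 679.6 FPKM in Con mice and 129 to 241 FPKM in CR mice at day 25 and 413 to 493 FPKM in Con mice and 96.9 to 188 FPKM in CR mice at day 30. Gstp2 and Gstp3 alone summed to 7.21 to 9.60 FPKM in Con mice and 10.1 to 13.7 FPKM in CR mice at day 25 and to 9.12 to 9.99 FPKM in Con mice and 16.5 to 26.8 FPKM in CR mice at day 30.

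**Figure D3:**
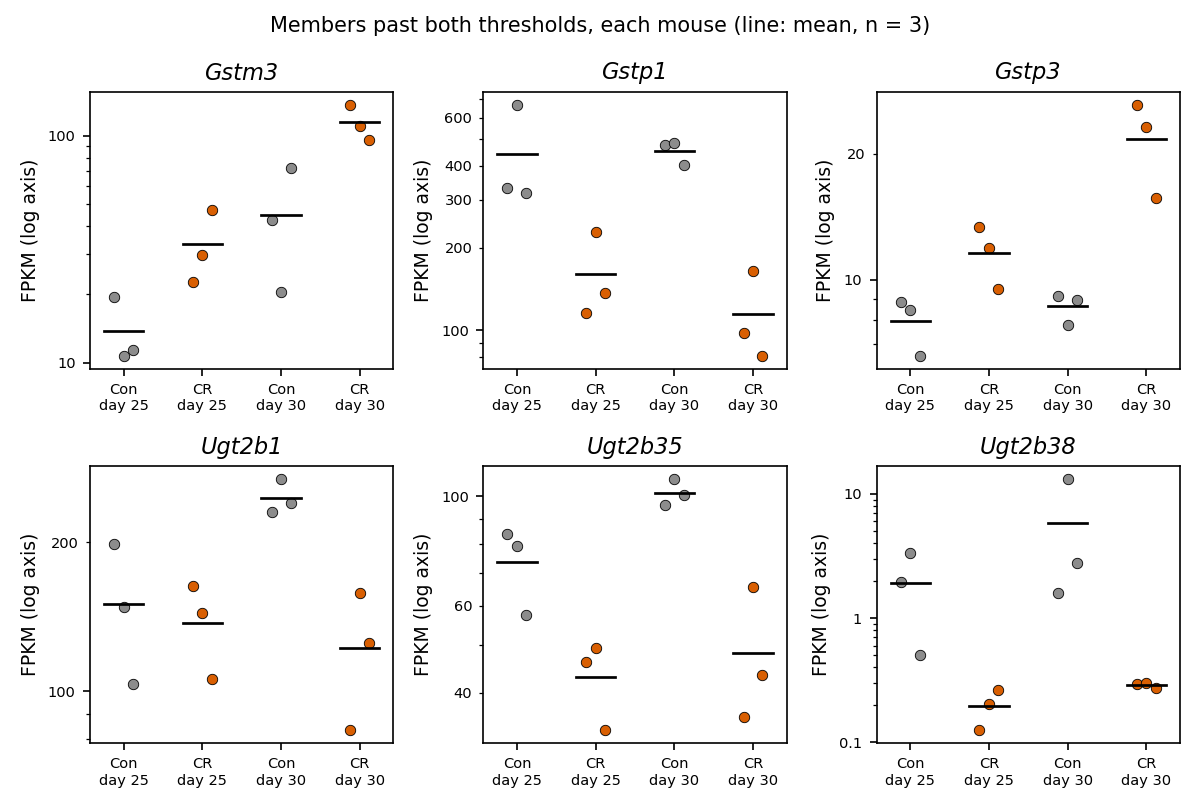
FPKM on a log axis for the 6 members that passed both thresholds at either day, in each mouse of the 4 groups, with gray points for Con, orange points for CR and a line at the mean of 3 mice. Gstm3 and Gstp3 are higher in CR and Gstp1, Ugt2b35 and Ugt2b38 lower at both days, whereas Ugt2b1 separates at day 30 only, and Con11 stands far above the other mice for Ugt2b38.

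The theta class, on chromosome 10, conjugates small halogenated compounds. Gstt1 (chr10:75783813-75798584, minus strand) was at 127, 130.2 and 129.8 FPKM in Con mice and 190.0, 257 and 209.7 FPKM in CR mice at day 25. At day 30, Gstt1 was at 141, 129 and 174 FPKM in Con mice and 259, 234 and 216 FPKM in CR mice. Each CR mouse was above each Con mouse, and the gene rose at day 25 (log2 fold change 0.75 ± 0.14 (SE), adjusted p = 0.00683) and at day 30 (log2 fold change 0.68 ± 0.14 (SE), adjusted p = 0.00635), also without any 1 mouse of the day. Gstt3 (chr10:75774117-75781422, minus strand) was at 41.9, 37.9 and 53.7 FPKM in Con mice and 60.7, 58.0 and 84.1 FPKM in CR mice at day 25. At day 30, Gstt3 was at 50.3, 31.7 and 65.2 FPKM in Con mice and 101, 80.6 and 86.5 FPKM in CR mice. It rose at day 30 (log2 fold change 0.90 ± 0.23 (SE), adjusted p = 0.0204), and at day 25 the adjusted p was 0.135 without the block and 0.0100 with it (log2 fold change 0.59 ± 0.23 (SE), adjusted p = 0.135), while the CR mice were above the Con mice at both days.

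Gstt2 (chr10:75831845-75834881, minus strand) was at 38.3, 67.9 and 65.0 FPKM in Con mice and 56.0, 81.2 and 65.0 FPKM in CR mice at day 25. At day 30, Gstt2 was at 48.4, 52.7 and 60.9 FPKM in Con mice and 98.6, 88.2 and 66.2 FPKM in CR mice. It rose at day 30 (log2 fold change 0.62 ± 0.22 (SE), adjusted p = 0.0711), but its adjusted p was 0.150 to 0.232 without Con10, Con11, CR10 or CR11 and 0.132 without a filter. At day 25 its groups overlapped (log2 fold change 0.26 ± 0.22 (SE), adjusted p = 0.493). Summed over the class, the values were 207 to 249 FPKM in Con mice and 307 to 396 FPKM in CR mice at day 25 and 214 to 300.2 FPKM in Con mice and 369 to 459 FPKM in CR mice at day 30, with CR means 1.54 and 1.63 times the Con means and no overlap. Without Gstt1 the sums overlapped at day 25, with a ratio of 1.33.

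The kappa enzyme Gstk1 (chr6:42245935-42250441, plus strand), which is found in mitochondria and peroxisomes, was at 81.1, 93.7 and 93.6 FPKM in Con mice and 92.7, 104 and 98.5 FPKM in CR mice at day 25. At day 30, Gstk1 was at 91.1, 77.3 and 93.3 FPKM in Con mice and 128, 105 and 101 FPKM in CR mice. It rose at day 30 (log2 fold change 0.35 ± 0.12 (SE), adjusted p = 0.0657) but was at 0.101, 0.211 and 0.240 without Con10, Con11 and CR10 and 0.117 in a fit of the 2 groups alone, and it did not pass at day 25 (log2 fold change 0.14 ± 0.12 (SE), adjusted p = 0.511). Gstz1 (chr12:87147707-87164723, plus strand), an isomerase of tyrosine breakdown, was at 358, 392 and 394 FPKM in Con mice and 392, 458 and 354 FPKM in CR mice at day 25. At day 30, Gstz1 was at 385, 322 and 375 FPKM in Con mice and 420.4, 430.0 and 358 FPKM in CR mice. Both days showed overlapping groups (log2 fold change 0.07 ± 0.12 (SE), adjusted p = 0.79 and log2 fold change 0.16 ± 0.12 (SE), adjusted p = 0.403). The omega enzyme Gsto1 (chr19:47854973-47864788, plus strand) was at 81.4, 109 and 84.2 FPKM in Con mice and 72.9, 88.9 and 81.2 FPKM in CR mice at day 25. At day 30, Gsto1 was at 77.5, 81.5 and 81.2 FPKM in Con mice and 76.8, 76.6 and 69.0 FPKM in CR mice. Its CR mice were the lower ones at day 30, but by a log2 fold change of -0.11 ± 0.12 (SE) with an adjusted p of 0.559, beside -0.17 ± 0.12 (SE) with an adjusted p of 0.43 at day 25.

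The Ugt1a genes lie in 1 locus on chromosome 1, in which every gene has its own first part and joins it to the same set of downstream exons. These shared exons begin at chr1:88215044 and were counted for each of the 8 rows. Ugt1a7c had the fewest reads in 11 of the 12 libraries. This lowest row had 94.4% to 100% of the reads of Ugt1a2, Ugt1a5, Ugt1a6a, Ugt1a9 and Ugt1a10, and 75.6% to 81.3% of those of Ugt1a1. The 8 rows had nearly the same log2 fold change, 0.41 to 0.43 at day 25 and 0.50 to 0.53 at day 30, with CR mice above Con mice in each. Ugt1a1, which glucuronidates bilirubin, was at 277, 321 and 333 FPKM in Con mice and 395, 388 and 464 FPKM in CR mice at day 25. At day 30, Ugt1a1 was at 338, 302 and 321 FPKM in Con mice and 489.7, 439.8 and 439 FPKM in CR mice. The locus rose at day 25 (log2 fold change 0.42 ± 0.11 (SE), adjusted p = 0.0368 for Ugt1a1) and at day 30 (log2 fold change 0.51 ± 0.11 (SE), adjusted p = 0.00998 for Ugt1a1), and at day 25 the adjusted p of the 8 rows was 0.126 to 0.146 without Con7 and 0.138 to 0.166 without CR9. The call at day 25 was also lost for Ugt1a1, Ugt1a6a, Ugt1a6b and Ugt1a9 in a fit of the 2 groups alone (0.102 to 0.106), and for Ugt1a6a, Ugt1a7c and Ugt1a10 with quantile normalization (0.103 to 0.107).

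What distinguished the rows was the number of reads beyond the shared part, taken as the difference from the lowest row and scaled to library size in the usual unit RPM. The shared part amounted at day 25 to 702, 825 and 811 RPM in Con mice and 974, 992 and 1178 RPM in CR mice, and at day 30 to 861, 755 and 803 RPM in Con mice and 1282, 1125 and 1076 RPM in CR mice. Its CR mean was 1.34 times the Con mean at day 25 and 1.44 times at day 30, without overlap. Beyond it, Ugt1a1 (own exon chr1:88211959-88212871, plus strand) had 191, 208 and 262 RPM in Con mice and 297, 259.6 and 318 RPM in CR mice at day 25, and 228, 217 and 229.6 RPM in Con mice and 296, 292 and 339 RPM in CR mice at day 30. The groups overlapped at day 25, where Con9 was above CR8, and did not at day 30, when the CR mean was 1.37 times the Con mean.

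Per base of own exon, Ugt1a1 held 75.5% of the reads beyond the shared part over the 12 libraries, Ugt1a9 12.2%, Ugt1a6a 6.7% and Ugt1a5 5.3%, whereas Ugt1a10 and Ugt1a2 held at most 0.1% each. Ugt1a7c was itself the lowest row in 11 of 12 libraries, so its own share is 0 there by construction and was not measured. Ugt1a5 (own exon chr1:88166012-88166903, plus strand) had 12.9, 5.33 and 12.0 RPM in Con mice and 18.0, 13.1 and 17.4 RPM in CR mice at day 25, and 13.0, 9.42 and 20.8 RPM in Con mice and 29.8, 26.9 and 32.2 RPM in CR mice at day 30. Among the 4 genes with more than 0.1% of these reads it alone had CR mice above Con mice at both days, at 1.60 and 2.06 times the Con mean. The CR mice were also higher at both days for Ugt1a10, but its means were 0.078 to 0.894 RPM. Ugt1a6a was at 28.6 RPM in Con mice and 22.0 in CR mice at day 30 and Ugt1a9 at 40.1 and 46.6, and their groups overlapped at both days. The exact permutation test gave its smallest possible p, 0.1, at both days for the shared part, Ugt1a5 and Ugt1a10 and at day 30 for Ugt1a1. Ugt1a6b was left out of this split because its row is shorter, 2285 bases against 3199 to 3294 for the others. The shares above therefore leave it out, although it had more reads than the lowest row in every library (13384 against 12916 in Con7). Coding sequences of Ugt1a6a and Ugt1a6b were 98.4% identical, and 100% of the 100-base windows of Ugt1a6a occur in another gene. Its reads beyond the shared part are uncertain for this reason. The FPKM of Ugt1a6b, scaled to its length of 2285 bases, was 318 to 564.

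**Figure D4:**
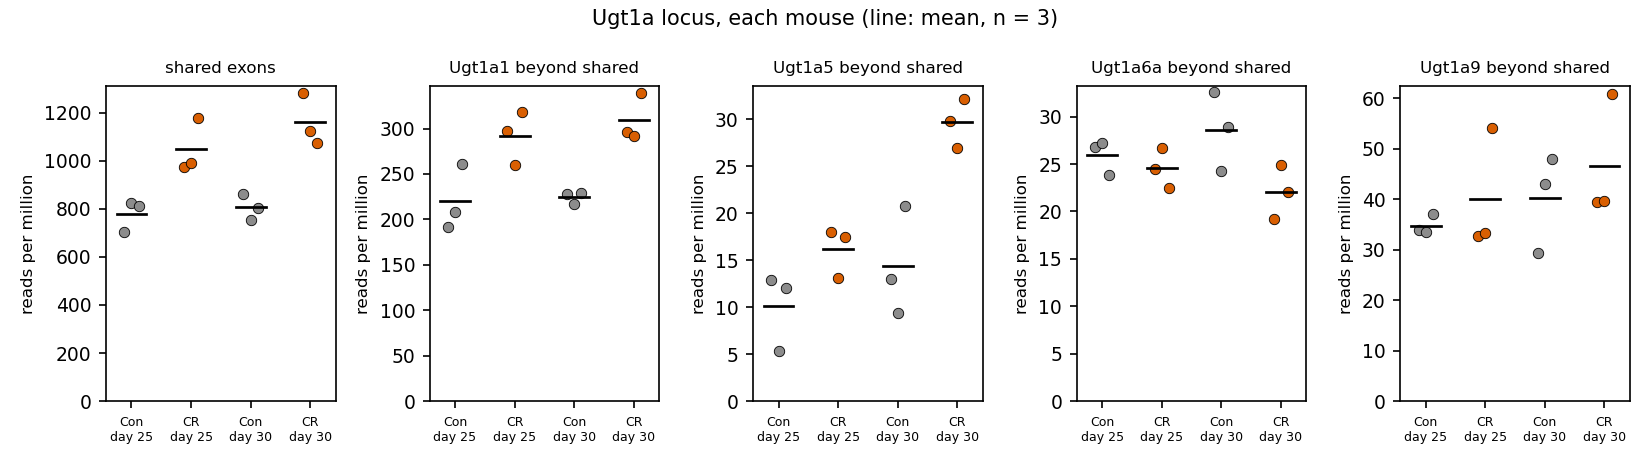
RPM (vertical axes, starting at 0) on the shared part of the Ugt1a locus and beyond it for Ugt1a1, Ugt1a5, Ugt1a6a and Ugt1a9, in each mouse of the 4 groups, with gray points for Con, orange points for CR and a line at the mean of 3 mice. The shared part and Ugt1a5 are higher in CR at both days and Ugt1a1 at day 30, while Ugt1a6a and Ugt1a9 overlap.

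The Ugt2b genes, in a cluster on chromosome 5, act on steroids, bile acids and many drugs. At day 30, 5 of 6 tested members fell and the 3 CR mice were below the 3 Con mice for all 6. At day 25, 1 of 6 fell. Over all tested genes, 16.4% fell at day 30 and 9.34% at day 25, and CR mice were below Con mice for 24.3% at day 30. Ugt2b38, 1 of these 6, entered the test through Con mice alone. Near-identical members are found here as well: coding sequences of Ugt2b38 and Ugt2b5 were 97.0% identical and 24.2% of the 100-base windows of Ugt2b38 occur in another gene, most often Ugt2b5, while those of Ugt2b1, Ugt2b35 and Ugt2b36 occur in none. In their first 90 coding bases Ugt2b5 and Ugt2b38 could not be distinguished at all, whereas Ugt2b35 differed at 13 positions, in capitals:

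Ugt2b5: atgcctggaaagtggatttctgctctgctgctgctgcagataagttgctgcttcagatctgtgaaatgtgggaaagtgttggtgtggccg
Ugt2b38: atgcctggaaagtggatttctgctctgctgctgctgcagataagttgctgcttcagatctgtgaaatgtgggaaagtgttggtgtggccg
Ugt2b35: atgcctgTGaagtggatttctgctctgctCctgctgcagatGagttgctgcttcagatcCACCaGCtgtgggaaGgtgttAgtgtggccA

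Ugt2b35 (chr5:87000860-87013274, plus strand) was at 84.0, 79.3 and 57.4 FPKM in Con mice and 46.2, 49.2 and 33.6 FPKM in CR mice at day 25. At day 30, Ugt2b35 was at 95.7, 108 and 101 FPKM in Con mice and 35.8, 65.4 and 43.4 FPKM in CR mice. It fell at day 25 (log2 fold change -0.76 ± 0.21 (SE), adjusted p = 0.0435) and passed both thresholds at day 30 (log2 fold change -1.10 ± 0.21 (SE), adjusted p = 0.00501), when the CR mean was 0.474 times the Con mean. CR mice were below Con mice at both days. Leaving out Con7, Con8 or CR9 brought the adjusted p at day 25 to 0.141, 0.114 or 0.159, and leaving out CR10 brought the log2 fold change at day 30 to -0.92 with an adjusted p of 0.0245.

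Ugt2b1 (chr5:86916639-86926503, minus strand) was at 199, 148 and 104 FPKM in Con mice and 163, 144 and 106 FPKM in CR mice at day 25. At day 30, Ugt2b1 was at 229.9, 268 and 239 FPKM in Con mice and 83.5, 158 and 125 FPKM in CR mice. The groups overlapped at day 25 (log2 fold change -0.10 ± 0.25 (SE), adjusted p = 0.858), and at day 30 the CR mean was 0.497 times the Con mean (log2 fold change -1.05 ± 0.25 (SE), adjusted p = 0.0167). Without CR10 the log2 fold change at day 30 was -0.80 (adjusted p = 0.0722) and without Con11 it was -0.98 (adjusted p = 0.0529), both past the adjusted p alone.

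Ugt2b38 (chr5:87409940-87424203, minus strand) was low in CR mice and variable in Con mice, at 1.96, 3.32 and 0.504 FPKM in Con mice and 0.125, 0.202 and 0.264 FPKM in CR mice at day 25. At day 30, Ugt2b38 was at 1.58, 13.2 and 2.78 FPKM in Con mice and 0.296, 0.300 and 0.273 FPKM in CR mice. These values rest on 16 to 532 reads in a Con mouse and 5 to 13 in a CR mouse. Ugt2b38 entered the test through the Con mice alone. It passed both thresholds at day 30 (log2 fold change -2.00 ± 0.50 (SE), adjusted p = 0.0187), also without Con11, which brought the log2 fold change to -1.28. At day 25 the groups did not overlap, and the adjusted p was 0.172 without the block and 0.0491 with it (log2 fold change -1.16 ± 0.50 (SE), adjusted p = 0.172). Ugt2b37, which was not tested, was likewise highest in Con11, at 2.73 FPKM against 0.0950 to 0.698 in the 11 other mice.

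Ugt2b5 (chr5:87124947-87140340, minus strand) was at 333, 319.9 and 225 FPKM in Con mice and 275, 294 and 264 FPKM in CR mice at day 25. At day 30, Ugt2b5 was at 389.8, 395 and 371 FPKM in Con mice and 238, 299 and 248 FPKM in CR mice. It fell at day 30 (log2 fold change -0.56 ± 0.15 (SE), adjusted p = 0.0215) without a call at day 25 (log2 fold change -0.06 ± 0.15 (SE), adjusted p = 0.853). Ugt2b36 (chr5:87065927-87092555, minus strand) was at 321, 317 and 271 FPKM in Con mice and 283, 300.3 and 309.8 FPKM in CR mice at day 25. At day 30, Ugt2b36 was at 364, 355 and 376 FPKM in Con mice and 268, 322 and 285 FPKM in CR mice. It fell at day 30 (log2 fold change -0.32 ± 0.11 (SE), adjusted p = 0.0559), with an adjusted p of 0.117 to 0.195 without Con10, Con12, CR10 or CR12, and its groups overlapped at day 25 (log2 fold change -0.02 ± 0.11 (SE), adjusted p = 0.931). Ugt2b34 (chr5:86889770-86906937, minus strand) was at 173, 144 and 123 FPKM in Con mice and 170.0, 137 and 137 FPKM in CR mice at day 25. At day 30, Ugt2b34 was at 178, 220.2 and 171 FPKM in Con mice and 122, 164 and 151 FPKM in CR mice. The CR mice were lower at day 30, but the adjusted p missed the threshold (log2 fold change -0.38 ± 0.16 (SE), adjusted p = 0.121) except without CR11 (0.0966). At day 25 its log2 fold change was 0.02 ± 0.16 (SE) with an adjusted p of 0.958. The 7 genes together summed to 780.1 to 1113 FPKM in Con mice and 851 to 938 FPKM in CR mice at day 25 and to 1259 to 1363 FPKM in Con mice and 748 to 1010 FPKM in CR mice at day 30, when the CR mean was 0.672 times the Con mean. Mean sums at day 25 and day 30 were 968 and 1295 FPKM in Con mice and 904 and 870 FPKM in CR mice. The Con mean thus differed more between days than the CR mean, and the reason was not tested.

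Ugt3a enzymes use other sugar donors than glucuronic acid, N-acetylglucosamine in the case of Ugt3a1. Ugt3a1 (chr15:9279829-9315036, plus strand) was at 17.2, 17.2 and 17.3 FPKM in Con mice and 15.8, 14.1 and 11.3 FPKM in CR mice at day 25. At day 30, Ugt3a1 was at 18.4, 14.8 and 20.5 FPKM in Con mice and 9.17, 13.0 and 11.9 FPKM in CR mice. The CR mice were below the Con mice at both days and the adjusted p was under 0.1 at day 30 (log2 fold change -0.61 ± 0.15 (SE), adjusted p = 0.0164) but not at day 25 (log2 fold change -0.32 ± 0.15 (SE), adjusted p = 0.21). Ugt3a2 (chr15:9335598-9370870, plus strand) was at 126, 130.4 and 115 FPKM in Con mice and 124, 104 and 115 FPKM in CR mice at day 25. At day 30, Ugt3a2 was at 141, 135 and 137 FPKM in Con mice and 105, 111 and 117 FPKM in CR mice. It fell at day 30 (log2 fold change -0.31 ± 0.10 (SE), adjusted p = 0.0483), with 0.123, 0.105 and 0.160 without Con10, Con12 and CR10 and 0.115 with median-ratio scaling between libraries, and not at day 25 (log2 fold change -0.12 ± 0.10 (SE), adjusted p = 0.501). Ugt2a3 (chr5:87324972-87337195, minus strand), which glucuronidates bile acids, was at 104 to 138 FPKM over the 12 mice with overlapping groups (log2 fold change 0.06 ± 0.13 (SE), adjusted p = 0.835 at day 25 and log2 fold change -0.07 ± 0.13 (SE), adjusted p = 0.751 at day 30).

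The change in effect from day 25 to day 30 was tested for each member, since a call at 1 day alone does not show it. By limma 0 of the 37 members passed for the difference between days, against 0.00944% of all tested genes, and the lowest adjusted p was 1. At an unadjusted p under 0.05 there were 4, both by limma and by voom on recovered reads: Gstm7, Gstp3, Ugt2b1 and Ugt2b5. Over all tested genes the share was 3.46% by limma and 3.27% by voom. Their effects at day 30 minus those at day 25 were 0.59 ± 0.24, 0.72 ± 0.25, -0.95 ± 0.36 and -0.51 ± 0.21 on the log2 scale (SE).

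Promoter sequence, the 250 bases before the start site in RefSeq (GRCm38.p6), was used for 38 members, those other than Gsta4, Gstt2, Ugt1a6b and Ugt3a2. The antioxidant response element core TGACNNNGC, searched on both strands, was found in 3 of them, Gsta3, Gstm5 and Gstm7, or 7.9%, against 11.5% of the promoters of 27025 genes. In Ugt2b, where members fell together, the sequences before the start were looked at as well, and the nuclear receptor half-site AGGTCA (both strands, chosen after the sequences were seen) was found in 5 of 7 genes, against 15.8% of all promoters and 21.1% of the members. In Ugt2b5, Ugt2b36 and Ugt2b38, and in the untested Ugt2b37, it lay 22 to 39 bases before the start, and in Ugt2b35 it lay 215 bases before it. The bases around it were nearly alike in Ugt2b5, Ugt2b36, Ugt2b37 and Ugt2b38, so these matches are not independent. The 21.1% of the members includes the Ugt2b genes. The motif is in capitals, with up to 20 bases on either side (chr5:87140341-87140382, minus strand for Ugt2b5, chr5:87092556-87092600, minus strand for Ugt2b36, chr5:87424204-87424248, minus strand for Ugt2b38 and chr5:87000625-87000670, plus strand for Ugt2b35):

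Ugt2b5: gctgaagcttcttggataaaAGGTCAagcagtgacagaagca
Ugt2b36: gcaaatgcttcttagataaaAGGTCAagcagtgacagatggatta
Ugt2b38: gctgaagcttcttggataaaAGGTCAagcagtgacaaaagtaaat
Ugt2b35: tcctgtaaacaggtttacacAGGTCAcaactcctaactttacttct

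Ugt2b1 and Ugt2b34 had no exact match in this window, and Ugt2b1 also fell at day 30. Gstp1 and Gstp2 shared a TGACTCA site, read on the opposite strand as TGAGTCA and also chosen after the sequences were seen, which was found in 5.2% of all promoters, in 13.2% of those of members (also Gstm5, Ugt2a2 and Ugt2b37) and not in that of Gstp3 (chr19:4037960-4038006, minus strand for Gstp1 and chr19:4042284-4042330, minus strand for Gstp2):

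Gstp1: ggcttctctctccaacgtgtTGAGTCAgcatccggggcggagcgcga
Gstp2: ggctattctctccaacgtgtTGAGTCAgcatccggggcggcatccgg

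Gstm5 and Ugt2b37 each held a pair of the motifs, which did not overlap. A match of letters is a description of the sequence, and binding of any factor was not measured.

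Other genes of these pathways were taken from fixed lists, and those named below without passing both thresholds were chosen after their values were seen. Their counts stand beside 5.60% of all tested genes that rose and 9.34% that fell at day 25, and 8.33% and 16.4% at day 30. Of 12 tested genes for glutathione synthesis and recycling, 2 fell and 0 rose at day 25, and 4 fell and 0 rose at day 30. The 4 were Gsr, which regenerates reduced glutathione (log2 fold change at day 30 -0.69 ± 0.11 (SE), adjusted p = 0.00194), Ggct (-0.56 ± 0.11 (SE), adjusted p = 0.00572), and both subunits of the rate-limiting enzyme of synthesis, Gclc (-0.87 ± 0.20 (SE), adjusted p = 0.0137) and Gclm (-0.46 ± 0.13 (SE), adjusted p = 0.0342). Gclc was at 111, 102 and 91.3 FPKM in Con mice and 41.7, 66.7 and 59.5 FPKM in CR mice at day 30. Among the other glutathione-conjugating enzymes, 3 were tested, of which 1 rose at each day and 1 fell at day 30, Gstcd (-0.29 ± 0.11 (SE), adjusted p = 0.091). The membrane-bound Mgst3 passed both thresholds upward at both days, with 17.5, 14.1 and 14.1 FPKM in Con mice and 29.3, 35.5 and 32.8 FPKM in CR mice at day 25 (1.05 ± 0.16 (SE), adjusted p = 0.00227) and 19.5, 14.9 and 22.4 FPKM in Con mice and 47.6, 43.5 and 35.2 FPKM in CR mice at day 30 (1.12 ± 0.16 (SE), adjusted p = 0.00081). Mgst1, the most abundant of them at 1972 to 2418 FPKM in the group means, passed at neither day.

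For the supply of UDP-glucuronic acid, 0 of 4 tested genes passed at day 25 and 2 fell at day 30. Ugdh, which makes this cofactor of all Ugt1a and Ugt2b enzymes, was at 132, 107 and 134 FPKM in Con mice and 44.2, 74.9 and 65.9 FPKM in CR mice at day 30 and passed both thresholds (-1.03 ± 0.19 (SE), adjusted p = 0.00396), while it was at -0.50 ± 0.19 (SE), adjusted p = 0.122 at day 25. Slc35d1, which carries the cofactor into the endoplasmic reticulum, fell at day 30 (-0.59 ± 0.17 (SE), adjusted p = 0.0359). Of 5 tested genes for the export of conjugates, 0 passed at day 25, and Abcc3 (-0.40 ± 0.15 (SE), adjusted p = 0.0866) and Abcg2 (-0.34 ± 0.13 (SE), adjusted p = 0.0979) fell at day 30.

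Among 15 tested regulators, 4 rose and 2 fell at day 25, and 3 rose and 2 fell at day 30. Maff, a small Maf protein that pairs with NRF2, passed both thresholds upward at both days (1.54 ± 0.17 (SE), adjusted p = 0.000386 and 1.24 ± 0.17 (SE), adjusted p = 0.000757), and Nr1i2, which encodes PXR, rose by 0.75 ± 0.14 (SE), adjusted p = 0.00684 at day 25 and 0.84 ± 0.14 (SE), adjusted p = 0.00206 at day 30. Of the other small Maf genes listed, Mafk fell at both days (-0.37 ± 0.10 (SE), adjusted p = 0.0445 and -0.42 ± 0.10 (SE), adjusted p = 0.0183) and Mafg passed at neither. The transcripts of NRF2 (Nfe2l2) and CAR (Nr1i3) passed at neither day. Of 13 other tested genes known to respond to these factors, 2 rose and 2 fell at day 25, and 1 rose and 4 fell at day 30. Por, the electron donor of the cytochromes P450, passed both thresholds upward (1.14 ± 0.20 (SE), adjusted p = 0.00608 and 1.65 ± 0.20 (SE), adjusted p = 0.000412), whereas the NRF2 target Srxn1 fell at both days (-0.86 ± 0.14 (SE), adjusted p = 0.00369 and -0.91 ± 0.14 (SE), adjusted p = 0.0015).

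Genes that differ between the sexes in mouse liver moved in these male mice. Of 11 genes known to be higher in males, 6 fell at day 25 and 11 at day 30, with the largest changes at day 30 in Serpina1e (-6.51 ± 0.94 (SE), adjusted p = 0.001), Selenbp2 (-6.13 ± 0.88 (SE), adjusted p = 0.000974), Mup20 (-4.40 ± 0.48 (SE), adjusted p = 0.000174) and Elovl3 (-3.94 ± 0.38 (SE), adjusted p = 7.60e-05). Of 8 tested genes known to be higher in females, 4 rose at day 25 and 7 at day 30, among them Cyp2b9 (7.01 ± 0.33 (SE), adjusted p = 3.99e-07), Cyp2b13 (2.88 ± 0.72 (SE), adjusted p = 0.019) and Acot3 (2.78 ± 0.43 (SE), adjusted p = 0.0014). The female list held 13 genes, and the rest were too low to test. Cyp2b9, Cyp2b13, A1bg and Cyp2a4 reached 1 FPKM in CR mice alone. They entered the test through the diet in which they were higher, so the count of genes that rose depends in part on the filter. These lists were written with earlier results of these data known, and whether Gstp1 or the Ugt2b genes follow them was not tested.

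The tissue was checked against its markers. Among the marker lists the hepatocyte one had the highest level, with Alb, Apoa1, Ttr, Cps1 and Serpina1a summing to 42900 to 49700 FPKM in Con and 48400 to 51700 in CR mice at day 25 and to 35800 to 44600 FPKM in Con and 52000 to 62400 in CR mice at day 30, when 2 of 5 rose. Most of these sums was Alb, with group means of 29730 to 46410 FPKM. The 2 that rose were Alb and Cps1, and 0 fell. Apoa1 was lower in each CR mouse than in each Con mouse at day 30 without passing (log2 fold change -0.23 ± 0.14 (SE), adjusted p = 0.261). Kidney and gut genes (4 listed, 1 tested) summed to 42.0 to 66.5 FPKM in Con and 33.7 to 47.8 in CR mice at day 25 and 41.2 to 49.2 FPKM in Con and 35.3 to 49.6 in CR mice at day 30, Umod was at 0 in all 12 mice, and Fabp2 had group means of 38.3 to 52.3 FPKM. Kupffer cell markers fell in 3 of 5 cases at day 25 (33.3 to 54.9 FPKM in Con and 21.5 to 28.5 in CR mice) and rose in 1 of 5 at day 30 (29.2 to 43.6 FPKM in Con and 29.5 to 39.0 in CR mice). Of the sinusoidal endothelium markers 1 of 5 rose at day 25 (30.5 to 45.1 FPKM in Con and 37.6 to 46.7 in CR mice) and 2 at day 30 (29.0 to 31.9 FPKM in Con and 38.0 to 43.1 in CR mice). Stellate cell markers rose in 0 of 4 tested cases at day 25 (49.0 to 58.1 FPKM in Con and 59.8 to 61.3 in CR mice) and in 2 at day 30 (46.7 to 55.6 FPKM in Con and 65.3 to 75.3 in CR mice). No cholangiocyte marker passed among the 2 tested at day 25 (13.4 to 17.8 FPKM in Con and 7.60 to 16.6 in CR mice) or day 30 (10.2 to 14.1 FPKM in Con and 12.0 to 14.8 in CR mice). Globin genes, which mark red cells, passed in 0 of 4 cases at day 25 (264 to 1070 FPKM in Con and 458 to 624 in CR mice) and day 30 (147 to 455 FPKM in Con and 314 to 1000 in CR mice). Pericentral hepatocyte genes rose in 2 of 6 cases at day 25 (5070 to 5430 FPKM in Con and 6500 to 7550 in CR mice) and in 0 at day 30 (4090 to 5080 FPKM in Con and 4800 to 6460 in CR mice). Of 5 periportal genes 1 rose and 1 fell at day 25 (2480 to 3700 FPKM in Con and 3320 to 3640 in CR mice), and 2 rose at day 30 (2280 to 2610 FPKM in Con and 2910 to 4150 in CR mice). The part of these differences in the values of the Gst and Ugt genes was not tested, and in bulk liver fewer cells of a type and less RNA per cell cannot be told apart.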

How the data were processed

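Liver RNA was sequenced with paired-end reads of 100 bp on a single lane. Per the labels and the file headers, the authors processed reads with CASAVA 1.8.2, FastQC and BWA on mm10, used DESeq2, and counted exon reads with HOMER, keeping 1 RefSeq transcript per gene. The deposited values are FPKM without further scaling between libraries. How the authors assigned reads that match several genes is not given in the sources used here. Count-based tests do not apply to FPKM.

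Library sizes were found from the spacing of low FPKM values, 100% of which were whole reads (tolerance 0.1 read). Precision is lowest for genes with few reads. The test was limma 3.58.1 (R 4.3.3) on log2(FPKM + 1), a pseudocount of 1, over 10593 genes at 1 FPKM or more in 3 or more libraries. It used 1 model of the 4 groups with eBayes and a trend, 2-sided, with Benjamini-Hochberg adjustment. Thresholds were 0.1 for the adjusted p and 1 for the size of the log2 fold change. On simulated data for day 30 with all 10593 genes, 185 of 200 changes of 1 on the log2 scale and 100 of 200 changes of 0.5 were recovered at an adjusted p under 0.1, with 21 and 11 unchanged genes called, and 0 were called with nothing changed. The simulated noise was normal and independent between genes and mice, with the spread of each gene. Differences that a mouse shows in many genes at once were not simulated, so these counts are not error rates of the real comparisons. Tables and figures used Python 3.11.15, pandas 2.3.3, numpy 2.4.6, matplotlib 3.10.9 and biopython 1.88.

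Groups come from the labels, which call the mice separate samples, except for the columns Con10 to Con12. The labels of the Con samples at day 30 all carry the same description, which does not tell these columns apart. Con10 to Con12 were placed in the Con group of day 30 by their column names. Every comparison at day 30 rests on this placement, and which sample each of these columns holds is unknown. At day 25, deviations from the group means correlated at 0.106 to 0.368 (mean 0.26) between same-numbered Con and CR mice. The mean for different numbers, -0.131, follows largely from the centering on means of 3 mice and is no separate comparison. With 3 mice in a group, whether the numbers mark real pairs cannot be decided. A fit with the replicate number as a block was also made, and its value stands beside each result whose call it changes. The columns of the Con mice at day 30 carry no such number, and the names Con10 to Con12 are those of the columns.

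The members and gene lists were chosen with earlier results of these data known. By the rule for named genes, values in every mouse are given for each member with an adjusted p under 0.1 at either day, for the most abundant member of each subfamily and for the members most alike to these in coding sequence, which replaced protein sequence. For Ugt1a rows, Ugt2a3 and Gstp2 ranges stand in part for them. List genes are named with values where they passed both thresholds, up to 4 a list, and 1 such gene is not reported here. Transcripts were those of GENCODE M21, promoters those of RefSeq. Alternatives covered the pseudocount, filter, scaling, moderation, groups in the model, thresholds, voom, the block and leaving out each mouse.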

Additional observations from a re-analysis of the deposited data

How the results depend on the processing

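At day 25, 2 members passed both thresholds. This count was 5 with a pseudocount of 0.1 and with TPM, 4 with voom on recovered reads, 1 without a filter, with robust eBayes or at an adjusted p under 0.05, and 8 at a log2 fold change of at least 0.5, and it was 1 to 3 when each mouse was left out in turn. The count at an adjusted p under 0.1 at day 25, 16, was 5 to 19 when each mouse was left out, with 5 without CR9 and 7 without Con7, and 14 to 20 under the other alternatives. Over all tested genes that count was 1582, with 893 without CR9 and 1000 without Con7. At day 30, 6 members passed both thresholds, 22 at a log2 fold change of at least 0.5, and 4 to 7 when each mouse was left out. The count at an adjusted p under 0.1 at day 30, 28, was 20 to 28 when each mouse was left out. Over all tested genes that count was 2619, and 1497 without CR10. For the difference between days the count was 0 under each alternative run, which leaves out the replicate block and the fit of 2 groups alone. With the replicate block at day 25, a paired fit, 3 members passed both thresholds and 20 the adjusted p, and it changed the call of Gstm6, Gstp3, Gstt3 and Ugt2b38 and no other call among the named members. Over all tested genes, 171 passed both thresholds and 2077 the adjusted p with the block, against 157 and 1582 without it. No paired analysis was possible at day 30 because the columns of the Con mice carry no replicate number.

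Without its most abundant member, the ratio of CR to Con sums of Gstp turned from 0.384 to 1.39 at day 25 and from 0.294 to 2.31 at day 30, that of Gstm at day 30 went from 1.04 to 1.52, and that of Ugt3a went to 0.798 at day 25 and 0.636 at day 30. The Gstt ratio at day 25 went from 1.54 to 1.33, with overlapping sums. The sums of Gsto and Ugt2a without it were under 1 FPKM and their ratios are not given, and Gstk and Gstz have 1 member. TPM and median-ratio scaling moved no ratio by more than the spread between mice. Log2 fold changes near 0 changed sign without a call: with median-ratio scaling Gstm1 (0.05 at day 25 and 0.00 at day 30), Ugt2a3 at day 30 (0.01), Ugt2b36 (0.04) and Ugt2b5 (0.01) at day 25, with quantile normalization Gstz1 (-0.05), Ugt2a3 (-0.02) and Ugt2b34 (-0.06) at day 25. Over named members, values with 1 mouse left out ran from -2.51 (Ugt2b38) to 1.90 (Gstm3). Of those that changed sign, at day 25 Gstm1 reached 0.10 to 0.13, Gstz1 -0.03, Ugt2a3 -0.03 to 0.00, Ugt2b1 0.08 to 0.13, Ugt2b34 -0.10 to -0.08, Ugt2b36 0.01 to 0.02 and Ugt2b5 0.02 to 0.05, and at day 30 Gstm1 reached 0.02 and Ugt2a3 0.03. Adjusted p-values fell under 0.1 with median-ratio scaling for Gsta2 at day 30 (0.0946) and Gstm2 and Gstp3 at day 25 (0.0896 and 0.0597), with voom for Gsta2 at day 30 (0.0971), with quantile normalization for Gstp3 at day 25 (0.0673), with TPM for Gstp3 and Ugt2b38 at day 25 (0.0965 and 0.0949), with a pseudocount of 0.1 for Ugt2b38 at day 25 (0.0449), and in fits of the 2 groups alone for Gstp3, Gstt3 and Ugt2b38 at day 25 (0.0933, 0.0937 and 0.0713). The cause was not tested. Depth limits Gsta1, Gstp2 and Ugt2b38, which had 0 to 32, 5 to 21 and 5 to 532 reads.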
